A study of Mus musculus with 12 samples.

Results

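Transcripts of 6 receptors through which neutrophils sense chemoattractants were followed across genotype and lipopolysaccharide (LPS). The members were listed by name, with earlier results of these data known: Fpr1, Fpr2, Ltb4r1, Cxcr2, Cxcr4 and C5ar1. Counts of called members are therefore not a test of the list. All 6 were found by NCBI Gene ID among the 9374 genes of the deposited table. Blood neutrophils came from female mice treated for 16 hours with saline or with LPS at 0.5 mg/kg, a glycolipid of bacterial outer membranes. There were 4 groups of 3 libraries. WT-Saline and WT-LPS came from wild-type mice, and KO-Saline and KO-LPS from a line named Hmgb1ΔMye, where ΔMye stands for a myeloid deletion of Hmgb1, the gene of a DNA-binding nuclear protein that cells can also release. The sources used here do not give the driver of the deletion, the age of the mice or whether each library came from its own animal. The p-values therefore cover the spread between libraries, and that spread may be technical.

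Chemoattractant receptors are G protein-coupled receptors of the neutrophil surface that turn a gradient of a chemical into directed movement. The formyl peptide receptors FPR1 and FPR2 sense peptides that carry the formylated methionine of bacterial and mitochondrial proteins, BLT1 (gene Ltb4r1) senses the lipid leukotriene B4, and the complement receptor C5aR1 senses the cleavage product C5a. CXCR2 binds chemokines such as CXCL1 and CXCL2 and draws neutrophils out of bone marrow and into inflamed tissue, whereas CXCR4 binds CXCL12 and retains them in, or returns them to, the marrow.

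Between 399702 and 526757 reads per library stood behind the table. Levels are given as CPM, scaled to equal library sizes, and 1 read was worth 1.86 to 2.67 CPM. Where no read was found, a level of up to 5.58 to 8.0 CPM was possible (floor of 3 reads in a library). Counting intervals and floors cover counting error only, since PCR copies were not told apart. KO-LPS replicate 1 stood apart. In a chi-square comparison of reads over genes, its distance from the other 2 KO-LPS libraries was 14.2 and 14.8 per degree of freedom, against 3.14 to 4.93 for the 10 other pairs within a group. The tests of the receptors that rest on it are given with and without it. For 826 of the 1095 genes (75.4%) called after LPS in WT, this library lay nearer the KO-Saline mean than the mean of KO-LPS replicates 2 and 3. Its label or treatment is therefore in doubt, which was not tested, and KO-LPS replicate 1 means the library labelled so. Hmgb1 was counted 37 and 63 times over the WT-Saline and WT-LPS libraries and 49 and 52 times over those of KO-Saline and KO-LPS. Its log2 difference, KO-labelled minus WT, was 0.53 ± 0.57 in saline and -0.21 ± 0.57 in LPS (± standard error, limma adjusted p = 0.915 and 0.992). Reads over the whole gene may lie outside the deleted part, so these values do not check the genotype, and the libraries are called KO-labelled. Of 226 long non-coding RNAs with exons opposite those of a measured protein-coding gene, 167 (73.9%, Clopper-Pearson 95% interval 67.7% to 79.5%) outnumbered that gene in reads. The sources used here do not state whether counting used strand, and its bearing on the receptor values was not tested. No annotated gene lies on the strand opposite any of the 6 members, which does not show from which strand their reads were counted.

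After LPS in WT, Fpr1, Fpr2, Ltb4r1 and C5ar1 rose and Cxcr4 fell, while Cxcr2 did not pass the test. This was 5 of 6 members called, where 11.7% of all genes were called. Of all genes 6.72% rose and 4.96% fell. Calls rest on 1 limma model of the 4 group means, with a Benjamini-Hochberg adjusted p under 0.05 across the 9374 genes. The 3 genes Fpr1, Fpr2 and Ltb4r1 rose about equally, by 2.35 to 2.37 log2 units. The RNA came from bulk isolates, in which fewer cells of a type and less RNA per cell cannot be told apart.

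Fpr1 and Fpr2 are neighbours on chromosome 17. In the mm10 annotation Fpr1 lies on the minus strand (chr17:17876471-17883940) and Fpr2 on the plus strand (chr17:17887824-17893952), head to head with 3883 bases between them. Each has 2 exon blocks. Fpr2 shares 48 exon bases with Fpr3 on the same strand, so reads there could belong to either. Ltb4r1 lies on the plus strand of chromosome 14 (chr14:55765962-55768494), and Cxcr4 on the minus strand of chromosome 1 (chr1:128588199-128592293). The promoter windows of these 4 genes, from 250 bases before to 50 bases after the annotated start, are shown because the first 3 genes rose together after LPS and the last fell. They are RefSeq sequences of build GRCm38.p6, written 5′ to 3′ on the gene's own strand. Capitals mark matches to the ETS core, bound by PU.1, or to the IRF core. The ETS core searched was GAGGAA and the IRF core was AANNGAAA, each also as its reverse complement.
Fpr1, minus strand, chr17:17883890-17884189: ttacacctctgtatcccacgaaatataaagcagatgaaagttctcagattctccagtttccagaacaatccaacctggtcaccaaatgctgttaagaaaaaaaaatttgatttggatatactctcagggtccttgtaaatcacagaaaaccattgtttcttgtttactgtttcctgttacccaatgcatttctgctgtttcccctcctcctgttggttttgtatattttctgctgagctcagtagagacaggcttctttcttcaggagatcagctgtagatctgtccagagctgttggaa
Fpr2, plus strand, chr17:17887574-17887873: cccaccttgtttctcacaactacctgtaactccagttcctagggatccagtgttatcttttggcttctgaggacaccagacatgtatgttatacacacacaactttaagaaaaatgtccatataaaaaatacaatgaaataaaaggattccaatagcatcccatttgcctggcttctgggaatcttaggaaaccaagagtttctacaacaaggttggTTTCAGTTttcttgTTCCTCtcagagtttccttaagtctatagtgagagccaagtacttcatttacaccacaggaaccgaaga
Ltb4r1, plus strand, chr14:55765712-55766011: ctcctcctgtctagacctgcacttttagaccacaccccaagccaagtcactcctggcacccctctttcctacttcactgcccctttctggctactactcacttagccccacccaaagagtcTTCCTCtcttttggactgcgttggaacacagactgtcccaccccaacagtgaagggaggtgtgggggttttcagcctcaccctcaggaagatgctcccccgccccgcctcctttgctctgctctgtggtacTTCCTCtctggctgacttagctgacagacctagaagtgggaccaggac
Cxcr4, minus strand, chr1:128592250-128592549: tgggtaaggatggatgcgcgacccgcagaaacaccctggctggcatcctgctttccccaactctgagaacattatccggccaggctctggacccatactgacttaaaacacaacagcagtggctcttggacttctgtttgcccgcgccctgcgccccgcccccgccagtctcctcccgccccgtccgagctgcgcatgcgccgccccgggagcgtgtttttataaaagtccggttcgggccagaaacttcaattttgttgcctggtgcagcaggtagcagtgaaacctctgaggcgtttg

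Both strands were searched for 5 motifs, and matches to different motifs could overlap. The Fpr2 window held 1 IRF match 33 to 26 bases before the start and 1 ETS match 19 to 14 bases before it. The Ltb4r1 window held 2 ETS matches, as did that of Cxcr2, and the windows of Fpr1, Cxcr4 and C5ar1 held no match to any of the 5. At least 1 ETS match was present in 28.3% and at least 1 IRF match in 23.9% of 32851 windows of the same length. Over the 9551 windows of the genes in the table these shares were 27.9% and 18.1%. The NF-kB letters GGANTTTCC, the AP-1 letters TGANTCA and the C/EBP letters TTGCNNAA were present in 1.25%, 7.81% and 10.8% of the 32851 windows. In the windows of the genes in the table they were present in 1.36%, 5.43% and 8.67%, and in none of the 6 members. The windows also differed in base composition. Fpr1 and Fpr2 had 1 CpG each and Fpr2 39.3% G and C, Ltb4r1 had 56.3% with 3 CpG, and Cxcr4 had 59.3% with 20 CpG, beside a median of 60.7% G and C over the windows of the genes in the table.

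Fpr1, the high-affinity receptor for formyl peptides, had 50.8, 84.6 and 54.0 CPM in the WT-Saline replicates and 386, 293 and 294 CPM in the WT-LPS replicates. All WT-LPS libraries lay above all WT-Saline libraries. The level went from 63.1 ± 18.6 to 324 ± 53.7 CPM (SD, n = 3), and the log2 fold change was 2.37 ± 0.35 (adjusted p = 2.82e-05, 95% interval 1.66 to 3.08). Fpr2, which in mice responds to formyl peptides and to several endogenous ligands, had 89.6, 93.0 and 55.9 CPM in WT-Saline and 519, 337 and 366 CPM in WT-LPS. The groups again did not overlap, as held for 30.8% of all genes in this comparison. Fpr2 rose by 2.35 ± 0.37 log2 units (adjusted p = 6.52e-05). Within a library the reads of Fpr2 were 1.30 ± 0.40 times those of Fpr1 in WT-Saline and 1.25 ± 0.10 times in WT-LPS (SD, n = 3), and these ranges overlapped. The ratio was 0.87 ± 0.08 in KO-Saline, where every library was below 1, and 1.15, 1.56 and 1.22 in the KO-LPS replicates.

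Ltb4r1, the high-affinity leukotriene B4 receptor gene, had the lowest mean level in CPM over the 12 libraries. It had 24.2, 23.3 and 44.7 CPM in WT-Saline, from 10, 11 and 24 reads, and 168, 152 and 147 CPM in WT-LPS, from 71, 72 and 79 reads. Every WT-LPS library exceeded every WT-Saline library. The rise was 2.36 ± 0.38 log2 units (adjusted p = 8.28e-05).

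C5ar1, on the minus strand of chromosome 7 (chr7:16246743-16259540), encodes the receptor for the complement peptide C5a. It had 530.1, 349 and 339 CPM in WT-Saline and 649, 652 and 671 CPM in WT-LPS. The WT-LPS replicates lay close together and all above the WT-Saline replicates, of which replicate 1 was the highest. C5ar1 rose by 0.73 ± 0.22 log2 units, or 1.65-fold (adjusted p = 0.0256). Leaving out WT-Saline replicate 2 or 3, or any 1 WT-LPS replicate, took the call away, with an adjusted p of up to 0.132.

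Cxcr2, on the plus strand of chromosome 1 (chr1:74153989-74161246), encodes the main chemokine receptor for neutrophil recruitment and was the most abundant member in CPM. It had 919.8, 907 and 806 CPM in WT-Saline and 657, 953 and 641 CPM in WT-LPS. The groups overlapped because WT-LPS replicate 2 was the highest of the 6 libraries. The log2 difference was -0.25 ± 0.21 (adjusted p = 0.519), with a 95% interval from -0.67 to 0.18.

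Cxcr4, the marrow retention receptor gene, had 595 CPM in WT-Saline replicate 1, 425 in replicate 2 and 350.2 in replicate 3. In WT-LPS the corresponding values were 104, 78.0 and 83.6 CPM. All WT-LPS libraries were far below all WT-Saline libraries. Cxcr4 fell by 2.33 on the log2 scale, with a standard error of 0.40 (adjusted p = 0.000194), which is a 5.02-fold lower level. The number of Cxcr2 reads per Cxcr4 read within a library, which does not depend on library scaling, was 1.54, 2.13 and 2.30 in the WT-Saline replicates, and the WT-LPS replicates had 6.30, 12.2 and 7.67. The lowest WT-LPS ratio was above the highest WT-Saline ratio.

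**Figure D1:**
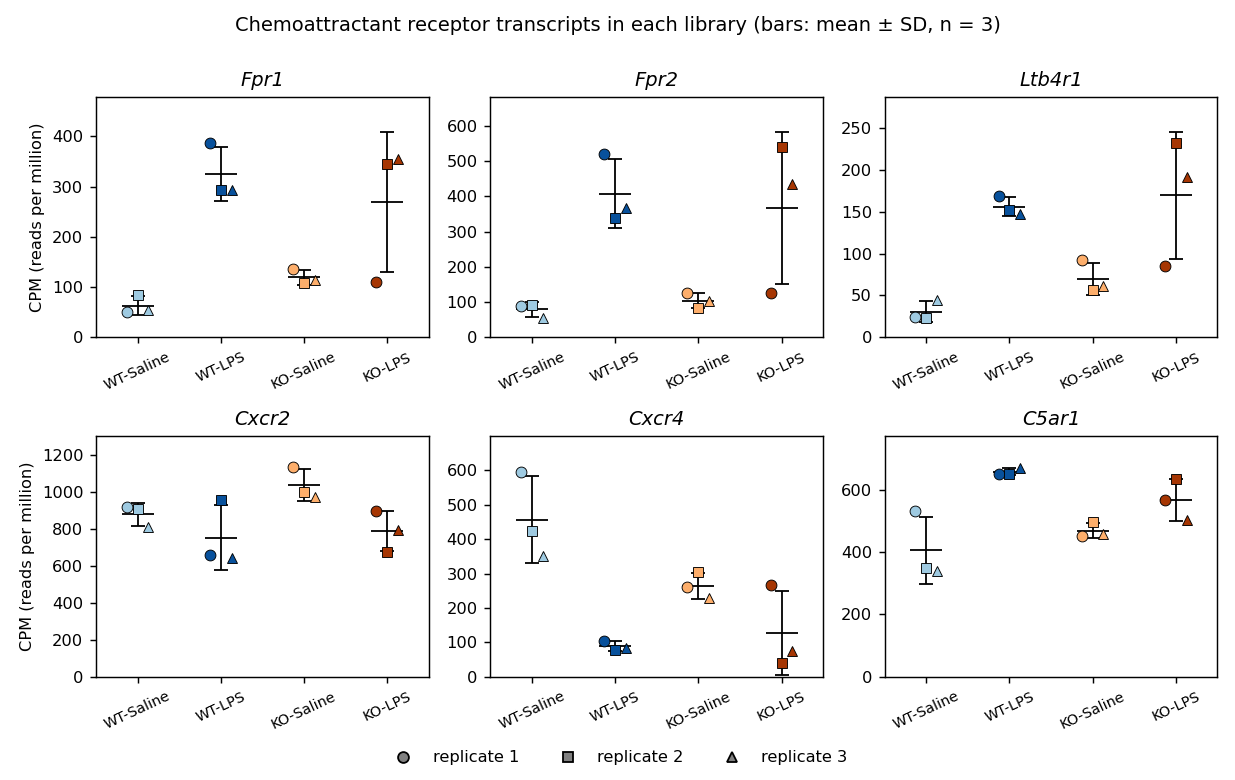
Level of each receptor transcript in CPM (vertical axis, linear from 0) in the 12 libraries by group (horizontal axis). Symbols are single libraries by replicate number, horizontal lines are means and bars are ± SD (n = 3). For Fpr1, Fpr2, Ltb4r1 and Cxcr4, KO-LPS replicate 1 (109, 125, 85.4 and 267 CPM) lies with the KO-Saline libraries and apart from the other KO-LPS libraries.

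In the KO-labelled libraries Fpr2 rose and Cxcr4 fell after LPS, which was 2 of 6 members called, where 3.35% of all genes were called, 1.99% upward and 1.35% downward. Without KO-LPS replicate 1, Fpr1, Fpr2 and Ltb4r1 rose and Cxcr4 fell, 4 of 6 members, where 11.5% of all genes were called. The Fpr1, Fpr2, Ltb4r1 and Cxcr4 values of KO-LPS replicate 1 lay inside the range of the KO-Saline libraries, and those of Cxcr2 and C5ar1 did not.

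Fpr1 had 136, 108 and 114 CPM in KO-Saline and 109, 345 and 356 CPM in KO-LPS. Replicate 1 lay among the KO-Saline libraries and the other 2 KO-LPS libraries above all of them. The log2 fold change was 0.99 ± 0.35 (adjusted p = 0.123) with that library and 1.55 ± 0.29 (adjusted p = 0.000165) without it. Fpr2 had 126, 84.6 and 102 CPM after saline and 125, 540.3 and 435 CPM after LPS. It rose by 1.58 ± 0.37 log2 units (adjusted p = 0.0144), and by 2.22 ± 0.29 without replicate 1. Leaving out replicate 2 or 3 of KO-Saline or of KO-LPS ended the Fpr2 call (adjusted p up to 0.193).

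Ltb4r1 had 91.9, 56.4 and 60.8 CPM in KO-Saline and 85.4, 232 and 191 CPM in KO-LPS. Here too replicate 1 fell inside the KO-Saline range. The log2 fold change was 1.18 ± 0.38 (adjusted p = 0.0891), and 1.61 ± 0.37 without replicate 1 (adjusted p = 0.00226). C5ar1 had 451, 497 and 457 CPM in KO-Saline and 566, 634 and 502 CPM in KO-LPS. The groups did not overlap, as held for 17.6% of all genes, but the log2 difference of 0.27 ± 0.22 did not pass (adjusted p = 0.573). It was 0.27 ± 0.21 without replicate 1.

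Cxcr2 had 1134, 1000.2 and 970.4 CPM in KO-Saline and 894, 676 and 793 CPM in KO-LPS. All KO-LPS values were below all KO-Saline values, yet the log2 difference of -0.40 ± 0.21 did not pass (adjusted p = 0.327; 0.0951 without replicate 1). Averaged over both genotypes, 5 of 6 members were called, 4 higher and 1 lower (Cxcr4), where 16.9% of all genes were called, 9.86% higher and 7.03% lower. The Cxcr2 difference was then -0.32 ± 0.15 (adjusted p = 0.134), and it was called without KO-LPS replicate 1 (adjusted p = 0.0334), where all 6 members and 23.8% of all genes were called. The averaged C5ar1 rise of 0.497 ± 0.15 (adjusted p = 0.0236) was no longer called when WT-Saline replicate 2 or 3, WT-LPS replicate 3 or KO-LPS replicate 2 was left out (adjusted p up to 0.071). Cxcr4 had 259.8, 304 and 229 CPM in KO-Saline and 267, 39.5 and 75.0 CPM in KO-LPS. Replicate 1 kept the saline level while replicates 2 and 3 had lower levels than every other KO-labelled library. Cxcr4 fell by 1.49 on the log2 scale, with a standard error of 0.40 (adjusted p = 0.0359). Without replicate 1 it fell by 2.24 (adjusted p = 6.22e-07). The call with replicate 1 kept (adjusted p = 0.0359) ended on leaving out WT-Saline replicate 1 or 2 or any 1 KO-Saline replicate. It also ended on leaving out KO-LPS replicate 2 or 3, with an adjusted p of up to 0.342. The ratio of Cxcr2 to Cxcr4 reads was 4.36, 3.29 and 4.24 in the KO-Saline replicates, and the KO-LPS replicates had 3.35, 17.1 and 10.6.

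**Figure D2:**
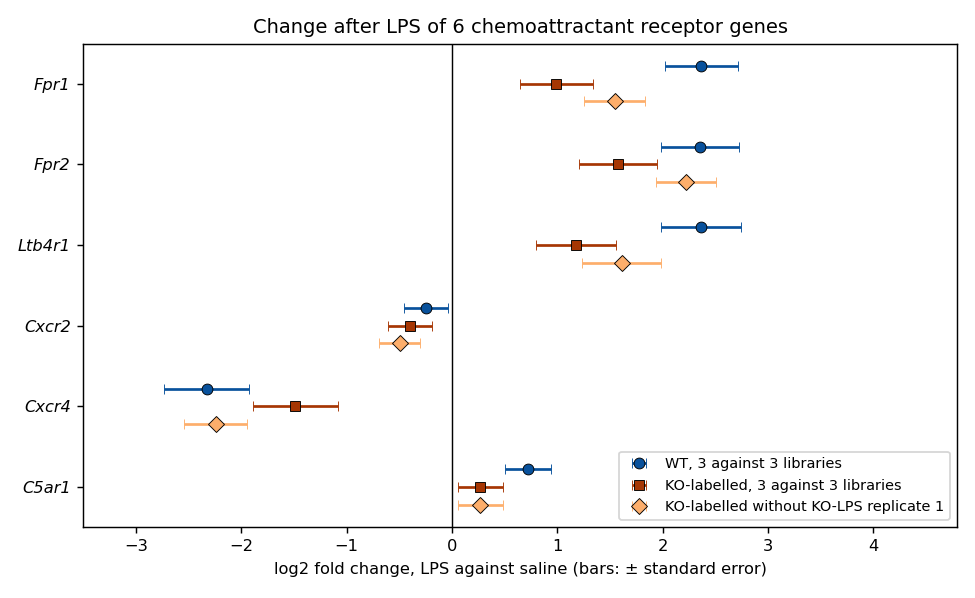
Log2 fold change of LPS against saline (horizontal axis, bars ± standard error of the limma model) for each receptor gene (vertical axis), in WT, in KO-labelled libraries, and in KO-labelled libraries without KO-LPS replicate 1. For Cxcr4 the 3 values are -2.33, -1.49 and -2.24, and for Fpr2 they are 2.35, 1.58 and 2.22.

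The third question was whether the receptor transcripts differed by genotype before or after LPS. In saline the KO-labelled libraries had higher Fpr1 and Ltb4r1 values and lower Cxcr4 values than WT, without overlap between the groups, but limma called 0 of 6 members. For Fpr1 the lowest KO-Saline library (108 CPM) was above the highest WT-Saline library (84.6 CPM), and the log2 difference was 0.94 ± 0.35 (limma adjusted p = 0.596). For Ltb4r1 the lowest KO-Saline library (56.4 CPM) was above the highest WT-Saline library (44.7 CPM), with a log2 difference of 1.19 ± 0.38 (limma adjusted p = 0.506). For Cxcr4 the highest KO-Saline library (304 CPM) was below the lowest WT-Saline library (350.2 CPM), and the log2 difference was -0.76 ± 0.40 (limma adjusted p = 0.779). Groups also did not overlap for Cxcr2, making 4 of 6 members, where 13.0% of all genes had groups that did not overlap. In this comparison 0.0107% of all genes were called. At an unadjusted p under 0.05 there were 2 of the members, Fpr1 and Ltb4r1, beside 6.86% of all genes, and limma with voom weights also called 0. The 95% intervals of the log2 difference in saline were 0.23 to 1.65 for Fpr1, 0.41 to 1.96 for Ltb4r1, -1.59 to 0.06 for Cxcr4, -0.35 to 1.17 for Fpr2, -0.19 to 0.66 for Cxcr2 and -0.21 to 0.68 for C5ar1.

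In LPS limma called 0 of 6 members between the genotypes, with and without voom weights, where 0.0% of all genes were called, and 0 members had an unadjusted p under 0.05. The log2 differences, KO-LPS minus WT-LPS, ran from -0.43 ± 0.35 for Fpr1 to 0.09 ± 0.21 for Cxcr2. Their 95% intervals reached from -1.14 to 0.28 for Fpr1 and from -0.75 to 0.91 for Cxcr4. The groups did not overlap for 1 of 6 members, C5ar1, where this held for 10.1% of all genes. These directions depended on KO-LPS replicate 1. Without it the difference turned from -0.43 to 0.12 for Fpr1, from -0.37 to 0.28 for Fpr2, from 0.09 to -0.01 for Cxcr2 and from 0.08 to -0.68 for Cxcr4. It went from 0.01 to 0.44 for Ltb4r1 and stayed at -0.22 for C5ar1, and 0 of 6 members were called (limma adjusted p of 0.942 or more). Cxcr4 then had an unadjusted limma p of 0.0293. The Hmgb1 difference in LPS turned from -0.21 to 0.31.

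The difference between the LPS responses of the genotypes was tested as an interaction, and limma called 0 of 6 members, also with voom weights, where 0.0% of all genes were called. The LPS response of Fpr1 was smaller in the KO-labelled libraries by 1.38 log2 units (-1.38 ± 0.49, limma adjusted p = 0.773), and that of Ltb4r1 by 1.18 (-1.18 ± 0.54, limma adjusted p = 0.82). These were the 2 members with an unadjusted p under 0.05, beside 5.97% of all genes. Without KO-LPS replicate 1 the Fpr1 value was -0.82 ± 0.39 (limma adjusted p = 0.85) and the Ltb4r1 value -0.75 ± 0.50 (limma adjusted p = 0.864). With and without that library the interaction was 0.84 ± 0.57 and 0.08 ± 0.40 for Cxcr4, -0.78 ± 0.52 and -0.13 ± 0.39 for Fpr2, -0.15 ± 0.29 and -0.25 ± 0.26 for Cxcr2, and -0.46 ± 0.31 and -0.46 ± 0.29 for C5ar1.

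**Figure D3:**
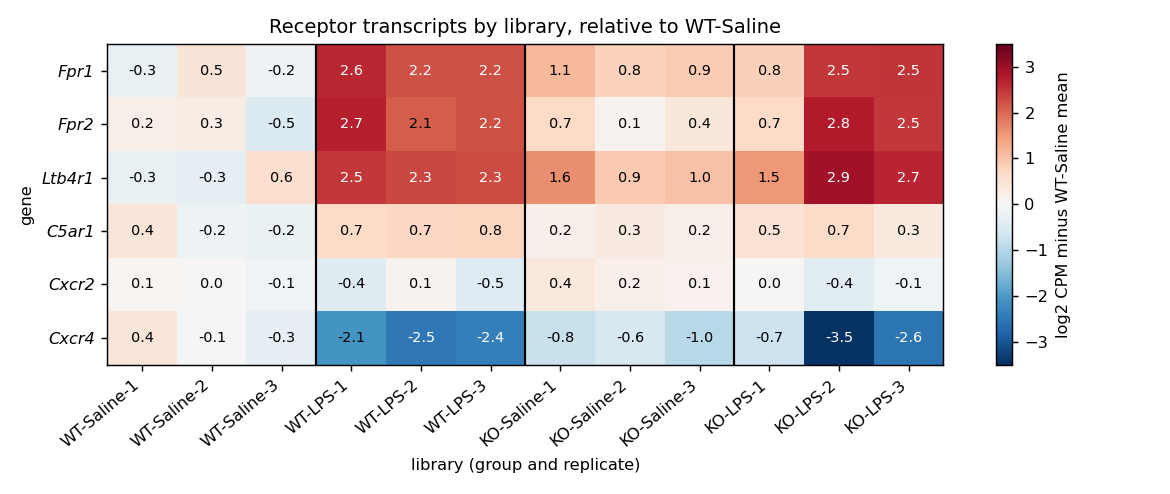
Log2 CPM of each receptor gene (rows) in each library (columns) minus the mean of the WT-Saline libraries, red for higher and blue for lower values. In the Fpr1, Fpr2, Ltb4r1 and Cxcr4 rows KO-LPS replicate 1 resembles the KO-Saline columns. It has 0.82 for Fpr1 and -0.74 for Cxcr4 against 2.47 and -3.46 in KO-LPS replicate 2. Its Cxcr2 and C5ar1 values lie outside the KO-Saline range, as with 0.51 for C5ar1 against 0.18 to 0.32 in KO-Saline.

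Levels of different genes were compared per kilobase of annotated exon. In WT-Saline Cxcr2 was highest at 288 ± 20.4 CPM per kilobase, followed by Cxcr4 (253 ± 69.5), C5ar1 (158 ± 41.9), Fpr2 (61.3 ± 15.8), Fpr1 (47.7 ± 14.1) and Ltb4r1 (22.0 ± 8.69; SD, n = 3 each). The libraries of Cxcr2 overlapped those of Cxcr4, those of Cxcr4 overlapped C5ar1, and those of Fpr2 overlapped Fpr1. In WT-LPS Fpr2 was highest at 314 ± 75.4 CPM per kilobase, followed by C5ar1 (256 ± 4.58), Cxcr2 (246 ± 57.7) and Fpr1 (245 ± 40.5), and these 4 overlapped each other. Ltb4r1 (112 ± 8.06) and Cxcr4 (49.0 ± 7.65) were the lowest, apart from the rest and from each other. In KO-LPS these 2 genes also had the lowest means, and with replicate 1 every neighbour in the order overlapped. Without it the order was Fpr2 (mean of 2 libraries 376 CPM per kilobase), Fpr1 (265), Cxcr2 (241), C5ar1 (221), Ltb4r1 (152) and Cxcr4 (31.7), and of neighbours only Cxcr2 and C5ar1 overlapped. KO-Saline had Cxcr2 first (339.5 ± 28.6), then C5ar1 (182 ± 9.62) and Cxcr4 (146 ± 20.9), each apart from the next, and Fpr1, Fpr2 and Ltb4r1 followed, each overlapping the next.

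The genes whose 12 log2 values were most like those of each member were found by Pearson's r. They were sought among 3441 genes with a mean of at least 20 reads per library. The r values are a description of these libraries, which share their scaling. Group means were kept in the log2 values, so r also holds the differences between groups. The likest genes are named for each member. For Fpr1 they were Snx22 (r = 0.982), D730005E14Rik and Rptor (0.974), and Fpr2 ranked 14 of the 3440 other genes (0.962). For Fpr2 they were Abca13 (0.989), Gfm2 (0.984) and the granule collagenase gene Mmp8. For Ltb4r1 they were Gm15350 (0.988), Sqor (0.979) and Gal3st4 (0.968). The likest to Cxcr4 were the immediate-early gene Junb (0.970), the macrophage growth factor gene Csf1 (0.969) and the antiproliferative gene Btg1 (0.966). Lower values were reached for C5ar1 by Syvn1 (0.938), Znfx1 and Rab3d (0.931 each) and for Cxcr2 by Notch2 (0.907), Rab8b (0.892) and Slc2a6 (0.891). Exons of Snx22, Rptor, Gfm2, Gm15350, Gal3st4, Junb, Syvn1 and Znfx1 overlap a gene on the opposite strand, so their reads could belong to that gene.

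Markers of neutrophil stage and of other blood cells moved beside the receptors, and their part in the receptor results was not tested. The counts of called markers stand beside the 6.72% of all genes that rose and 4.96% that fell in WT, and the 1.99% and 1.35% in KO-labelled libraries. Cxcr2, 1 of the 6 receptors, is also in the list of mature neutrophil markers and in its sums. All 14 mature neutrophil markers were measured, with a summed level of 15097 to 20309 CPM in WT-Saline, 19838 to 22796 in WT-LPS, 20575 to 20945 in KO-Saline and 21855 to 23521 in KO-LPS. Of these markers 7 rose and 2 fell after LPS in WT, and 3 rose and 1 fell in KO-labelled libraries (5 and 2 without KO-LPS replicate 1). Of 8 markers of the stage at which late granules are filled, such as the granule protein genes Ngp and Lcn2, 7 rose in WT and 5 in KO-labelled libraries, also 5 without KO-LPS replicate 1. Their summed level was 662 to 851 CPM in WT-Saline, 10791 to 15391 in WT-LPS and 1178 to 1937 in KO-Saline. In KO-LPS it was 1833 CPM in replicate 1 and 14942 and 14584 CPM in replicates 2 and 3, so replicate 1 lay within the KO-Saline range for these markers as well. Of 7 markers of early precursors 2 were measured, Prtn3 near 0 and Mki67. None was called (1 rose in KO-labelled libraries without KO-LPS replicate 1). Mki67 was far from 0, with a mean after saline of 1881 CPM for WT and 1461 CPM for KO-labelled libraries. After LPS its means were 2444 CPM for WT and 2100 CPM for KO-labelled libraries, with replicate 1 kept. Each mean lay above that of Cxcr2 for the same group, and the reason was not tested. Of 10 monocyte and macrophage markers 6 were measured, and 1 rose and 2 fell in WT. Their sums were 429 to 562 CPM in WT-Saline, 601 to 687 in WT-LPS, 441 to 518 in KO-Saline and 432 to 661 in KO-LPS. In WT the mean of Ly6c2 rose from 31.7 to 391 CPM. Those of Csf1r and Apoe fell, from 244 to 130 CPM and from 81.6 to 9.27 CPM, so the sum does not stand for the whole list. In KO-labelled libraries 1 of the 6 measured markers fell, and without KO-LPS replicate 1 there was 1 that rose and 2 that fell. Of 6 platelet markers 3 were measured and all 3 fell in WT, from 523 to 779 CPM down to 161 to 255, with 651 to 837 in KO-Saline and 217 to 496 in KO-LPS. In KO-labelled libraries 1 of them fell, or 2 without KO-LPS replicate 1. Of 6 dendritic cell markers 4 were measured, with sums of 104 to 214 CPM in WT-Saline, 24.2 to 47.4 in WT-LPS, 58.4 to 108 in KO-Saline and 22.2 to 104 in KO-LPS. Of these markers 1 fell in WT and 0 were called by limma in KO-labelled libraries (1 fell without KO-LPS replicate 1). Clec9a of this list had 0 reads in all WT-LPS libraries. Of 5 B cell markers only Cd79a was measured, and it rose in both genotypes, at 9.68 to 29.6 CPM in WT-Saline, 101 to 134 in WT-LPS, 7.30 to 28.9 in KO-Saline and 34.7 to 104 in KO-LPS. Of 8 T and NK cell markers 2 were measured, with sums of 119 to 165 CPM over the WT-Saline libraries and 84.4 to 213 over those of WT-LPS. Those of KO-Saline had 80.3 to 155 CPM and those of KO-LPS 66.5 to 128. Of the 2, Tcf7 went from 43 reads in WT-Saline to 5 in WT-LPS and fell by 3.17 on the log2 scale (limma adjusted p = 0.022), a call that ended (adjusted p up to 0.13) without any 1 WT-Saline replicate or WT-LPS replicate 1. The erythroid and the eosinophil and basophil lists had 1 measured member each, at 2.62 to 37.9 and 0 to 23.6 CPM over all libraries, and limma called neither.

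The other genes of chemoattractant signalling were read from 4 lists in the same WT comparison. Their medians are set beside the median log2 change of all genes, which was 0.07 in WT and 0.09 in the KO-labelled libraries, and their counts beside the 11.7% and 3.35% of all genes called. The WT counts also moved without KO-LPS replicate 1, which shares the model's estimate of the spread, where 15.2% of all genes were called in WT. Of 27 measured other receptors that guide or modulate neutrophil migration, 2 rose, 2 fell and 23 did not pass in WT (median log2 change 0.05), and without KO-LPS replicate 1 there were 4 that rose and 5 that fell. Cxcr1, the sister gene of Cxcr2 on chromosome 1, went from 70 reads in WT-Saline to 12 in WT-LPS and fell by 3.19 on the log2 scale, with a standard error of 1.02 (adjusted p = 0.0382), a call that ended on leaving out any 1 WT-Saline or KO-Saline replicate or WT-LPS replicate 1 or 3 (adjusted p up to 0.227). Adora2a, an adenosine receptor gene, went from 0 reads to 55, at least 5.92-fold higher (adjusted p = 0.00264). Gpr84, a receptor for medium-chain fatty acids, rose by 3.95 ± 0.95, with exons opposite Gm49482. Csf3r, the receptor gene of the growth factor G-CSF, fell by 1.62, with a standard error of 0.30. In the KO-labelled libraries 1 gene of this list rose and 2 fell (median -0.25). Ptgdr2, a prostaglandin D2 receptor gene with exons opposite Ccdc86, went from 0 reads to 31 and was at least 3.39-fold higher. Hcar2, the nicotinic acid receptor gene, fell by 2.79, with a standard error of 0.67, and Csf3r by 1.24, with a standard error of 0.30. These 3 calls ended on leaving out any 1 KO-Saline replicate or KO-LPS replicate 2 or 3 (adjusted p up to 0.208), and without KO-LPS replicate 1 there were 3 genes that rose and 5 that fell.

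Of 17 measured genes for ligands and their synthesis, 8 rose, 1 fell and 8 did not pass in WT, with a median log2 change of 2.08, and the counts were also 8 and 1 without KO-LPS replicate 1. Saa3, which encodes an acute phase protein, had no read in WT-Saline but 42 in WT-LPS, at least 4.57-fold higher, and was not called without WT-LPS replicate 1 or 3 (adjusted p up to 0.0549). Camp, whose product gives the cathelicidin peptide, had 2 and 71 reads, which is 35.2 times as many, between 9.4 and 297 by counting error. Cxcl2, a ligand of CXCR2, rose by 3.59 ± 1.06 (adjusted p = 0.0245), and was not called without WT-Saline replicate 2 or 3 or WT-LPS replicate 1 or 2 (adjusted p up to 0.159). Ccl6, a CC chemokine gene, fell by 2.32, with a standard error of 0.39 (adjusted p = 0.000127), and by 2.09 in the KO-labelled libraries, where the call ended without KO-LPS replicate 2 (adjusted p = 0.0519). There 4 genes of the list rose and 1 fell (median 1.10), among them Saa3, at least 17.6-fold higher, and Cxcl1, another CXCR2 ligand gene, with 0 reads and then 35, at least 3.68-fold higher. Both calls ended on leaving out any 1 KO-Saline replicate or KO-LPS replicate 2 or 3 (adjusted p up to 0.295). Without KO-LPS replicate 1 there were 6 that rose and 2 that fell.

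Of 45 measured genes of G protein and PI3K signalling, 4 rose, 2 fell and 39 did not pass in WT (median 0.14), with 7 that rose and 4 that fell without KO-LPS replicate 1. Pik3r6, which encodes the p84 adaptor of PI3K gamma, rose by 1.43 ± 0.38 (adjusted p = 0.0109, and up to 0.0599 without WT-Saline replicate 3 or WT-LPS replicate 2). Pik3r1, the gene of the p85 alpha regulatory subunit, fell by 1.13, with a standard error of 0.32, a call that ended without WT-Saline replicate 1 or 3 or WT-LPS replicate 1 or 2 (adjusted p up to 0.0976). Arhgap15, a Rac GTPase-activating protein gene with exons opposite Arhgap15os, fell by 1.28, with a standard error of 0.42 (adjusted p = 0.0444), a call that ended on leaving out any 1 WT library or KO-Saline replicate 2 (adjusted p up to 0.153). Of 25 measured genes for desensitisation and its regulators, 1 rose, 2 fell and 22 did not pass in WT (median 0.22), with 2 that rose and 5 that fell without KO-LPS replicate 1. The beta-arrestin genes, whose products uncouple and internalise activated receptors, went in opposite directions. Arrb2 went from 160 ± 23.6 to 459 ± 118 CPM and rose by 1.497 ± 0.25 (adjusted p = 0.000147). Arrb1 went from 128 ± 37.7 to 46.7 ± 27.2 CPM and fell by 1.54, with a standard error of 0.39 (adjusted p = 0.00874), a call that ended without WT-Saline replicate 3 or WT-LPS replicate 1 (adjusted p up to 0.0723). Rgs2, a regulator of G protein signalling, fell by 2.07, with a standard error of 0.44 (adjusted p = 0.00168). In the KO-labelled libraries limma called 0 genes of both lists, and without KO-LPS replicate 1 it called 2 that rose and 2 that fell in the first and 1 that rose and 4 that fell in the second.

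**Figure D4:**
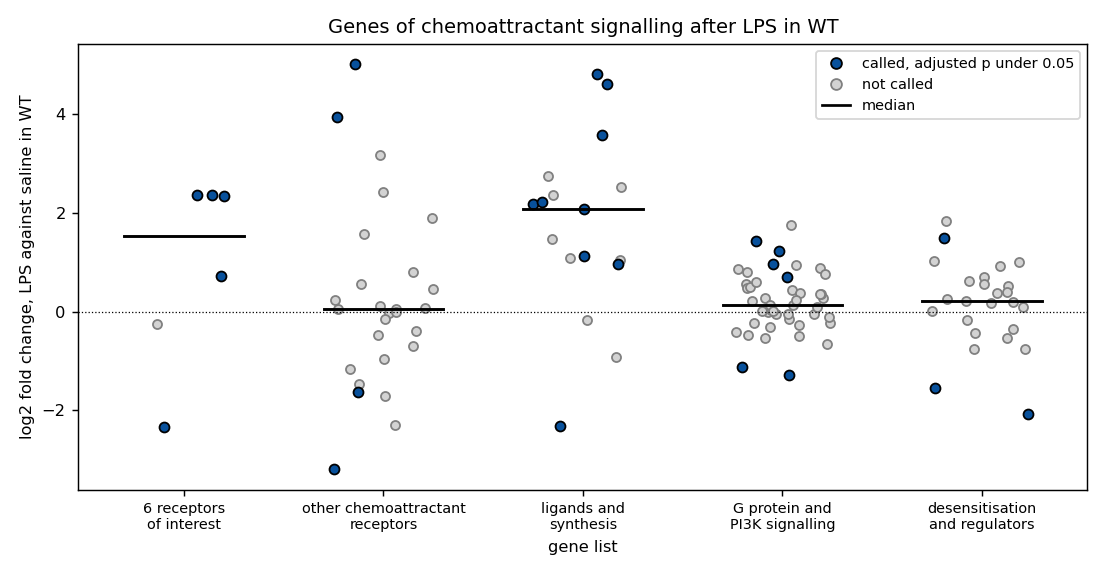
Log2 fold change of LPS against saline in WT (vertical axis) for the 6 receptor genes and the measured genes of 4 lists (horizontal axis). Points are genes, filled blue where called and grey where not, with a horizontal line at each median. The medians are 1.54 for the 6 receptors, 0.05, 2.08, 0.14 and 0.22 for the lists.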

How the data were processed

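Expression was measured by RNA sequencing in 12 libraries, with mm10 as the genome build per the submitters' processing notes. The authors deposited 1 table of normalized log2 values. The sources used here do not give the aligner, counter, annotation, strand setting or gene filter. Per the labels' protocols, RNA was purified with a miRNeasy micro kit and libraries were made with a Tecan total RNA kit with mouse probes. Whole reads were recovered by taking each column's minimum as 0 reads plus 0.5, and came out whole within 0.0001 for 100.0% of values in each column. CPM were computed from these reads and the implied scaled library sizes. Symbols came from RefSeq (9372 of 9374 IDs), and coordinates and exon lengths from GENCODE M21 (mm10, 1-based).

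The deposited log2 values were fitted with limma 3.58.1 in R 4.3.3 (4 group means, mean-variance trend, two-sided). The fit was tested on simulated data. Groups were taken from the sample descriptions. From each list the rule named up to 4 called genes of largest change in WT and 2 in KO-labelled libraries, and for each receptor the 3 likest genes. A gene that the rule named is not reported here. The receptors, lists and tests were chosen with earlier results of these data known. Alternatives are given in the closing section.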

Additional observations from a re-analysis of the deposited data

How the results depend on the processing

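Fpr1, Fpr2 and Ltb4r1 kept their WT calls under all 21 alternatives (log2 changes 2.12 to 2.65, adjusted p up to 0.0361), and Cxcr4 under 20, the exception being the fit without a mean-variance trend (adjusted p = 0.0539). Without that trend limma called 363 genes and 3 members in WT, 16 genes and 0 members in KO, 944 genes averaged over genotypes and 0 between genotypes in saline. With only the 2 groups compared it called 82 genes and 0 members after LPS in KO and 22 genes between genotypes in saline. Requiring a mean of at least 10 reads, or robust variance moderation, left 1 member called in KO. Between genotypes in saline 1 gene was called, against 5 with robust moderation, 4 with 2 reads added and 2 with voom weights. With voom weights on the recovered reads, 1253 genes were called in WT, 1 between genotypes in LPS and 2 in the interaction. Leaving out 1 library at a time, the counts ran from 734 to 1427 genes in WT, 32 to 1076 genes and 0 to 4 members in KO, 0 to 31 genes between genotypes in saline (31 without KO-LPS replicate 1), 0 to 2 in LPS and 0 to 7 in the interaction. In the same runs the uncalled genotype differences in LPS changed sign: Fpr1 ran from -0.72 to 0.12, Fpr2 from -0.77 to 0.28, Ltb4r1 from -0.28 to 0.44, Cxcr2 from -0.0155 to 0.27, Cxcr4 from -0.68 to 0.68 and Hmgb1 from -0.75 to 0.31. The Cxcr2 interaction ran from -0.25 to 0.0337. The cause was not tested. Same-numbered libraries did not deviate together (18 pairs, r from -0.158 to 0.08, and 0 libraries correlated best with their own number). The replicate block gave 1086 genes in WT, 336 in KO and 1563 averaged, and changed no call of a receptor. Depth left 6.93% to 19.19% of genes per library with no read.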
